A study of Mus musculus with 6 samples.

Results

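Cholesterol and fatty acids that a macrophage takes in with a dead cell pass through the lysosome and, in part, into lipid droplets, and 10 genes of that route are described here out of 38124 genes in the deposited table. They were chosen by function, with earlier results of these data known, and all 10 were found. The rows are those named Lipa, Npc1, Npc2, Soat1, Nceh1, Plin2, Plin3, Pnpla2, Lipe and Dgat1. The cells were bone-marrow-derived macrophages, grown in culture from marrow of wild type C57BL mice. In 3 libraries the macrophages were untreated, and in 3 they had been exposed for 24 hr, at a ratio given as 1:40, to thymocytes killed with dexamethasone, a synthetic glucocorticoid. The apoptotic cells were removed before RNA was taken, both groups had the same genotype, and the libraries of a group are stated to be biological replicates, with no animal or culture day named.

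Lipids of an engulfed cell are broken down in the lysosome, where acid lipase cuts cholesteryl esters and triglycerides. The freed cholesterol is handed by the soluble protein NPC2 to the membrane protein NPC1, which passes it out of the lysosome. In the endoplasmic reticulum, SOAT1 (also called ACAT1) esterifies surplus cholesterol for storage in droplets, DGAT1 does the last step of triglyceride synthesis, perilipins coat the droplets, and neutral lipases release the stored lipid again. Macrophages in which this storage outpaces release are known as foam cells.

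The libraries held 19315132 to 25933208 mapped reads, and between 268 (Dgat1) and 72640 (Lipa) reads fell on a gene of the 10 in a library. All values below are RPKM, read numbers divided by gene length and library depth. The gene lengths behind the deposited values are not stated. For Nceh1, Plin2 and Pnpla2 the GENCODE M21 exon length gave whole reads, and for the other 7 the read numbers rest on the shortest length that a search found to do so, for Lipa 2969 bases against 6780 in M21, for Soat1 4785 against 9791 and for Npc2 3261 against 5438. Levels of different genes therefore depend on the gene models, by up to 2.28-fold between these lengths, while changes of 1 gene between libraries do not. All 7 macrophage markers checked were expressed, with a summed level of 15598 to 16332 RPKM in untreated and 20027 to 22378 in treated libraries, most of it Lyz2, the 1 marker called higher. The other 6 were called lower, beside 46.0% of all tested genes, and their sum was 2483 to 2554 in untreated and 1838 to 1972 in treated libraries. The largest of these falls were in Fcgr1 (49.97 to 54.998 in untreated, 7.09 to 7.87 in treated libraries), Cd14 (194 to 208, then 44.6 to 54.6) and Itgam (118 to 121, then 32.3 to 33.7). The part of these shifts in the results was not tested. Of 15 thymocyte and T cell markers, Cd3e, Cd8b1, Rag2, Ptcra and Themis were at 0 in every library and 1, Cd4, reached 1 RPKM. The summed level was 4.36 to 4.75 in untreated and 2.20 to 2.61 in treated libraries. Most of it was Cd4 (4.14 to 4.46 in untreated, 2.01 to 2.32 in treated libraries). Lck was lower as well (0.133 to 0.143, then 0.0132 to 0.0580). Cd3d, at 0 in all untreated libraries, stood at 0.0291, 0.0332 and 0.0642 in treated ones. Cd3g, also at 0 in untreated libraries, stood at 0.0360, 0 and 0.0397 in treated ones. Over the 6 libraries summed markers lay between 0.136 and 0.596 RPKM for B cells, between 0.0625 and 0.194 for dendritic cells and between 0.969 and 1.44 for fibroblasts. Summed neutrophil markers went from 0.128 to 0.370 in untreated to 3.44 to 3.87 in treated libraries. Most of the treated sum was Ngp (0.107 to 0.309 in untreated, 2.71 to 2.95 in treated libraries), followed by Camp (0.657 to 0.848 in treated libraries). Elane reached at most 0.231, Mpo did not rise and Ly6g was at 0 in all. Of the adipocyte markers Adipoq, Lep and Adrb3 were at 0 in all. In RNA from a whole culture, fewer cells of a type and less RNA per cell cannot be told apart.

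In treated macrophages 6 of the 10 genes were higher, 1 was lower and 3 did not pass the test (limma, a linear model fitted to log2(RPKM + 1) over every gene that reached 1 RPKM in 3 or more libraries, adjusted p under 0.05). The genes that rose were Pnpla2, Soat1, Plin2, Npc1, Plin3 and Lipa, the gene that fell was Npc2, and Nceh1, Lipe and Dgat1 did not pass. Among all 10173 tested genes 18.8% were called higher and 46.0% lower, 64.8% in all, so a call of some kind was common, while a call in the upward direction was the rarer one. The median log2 change of the 10 was 0.37, beside -0.13 for all tested genes. The groups' ranges did not overlap for 8 of the 10, 6 with treated above and 2 below, beside 69.6% of all tested genes, 20.4% above and 49.1% below. Once libraries were rescaled by median-of-ratios, so that the typical gene had a change near 0, 7 of the 10 were higher, the added one being Lipe, and 1 was lower, beside 30.2% and 29.8% of tested genes.

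**Figure D1:**
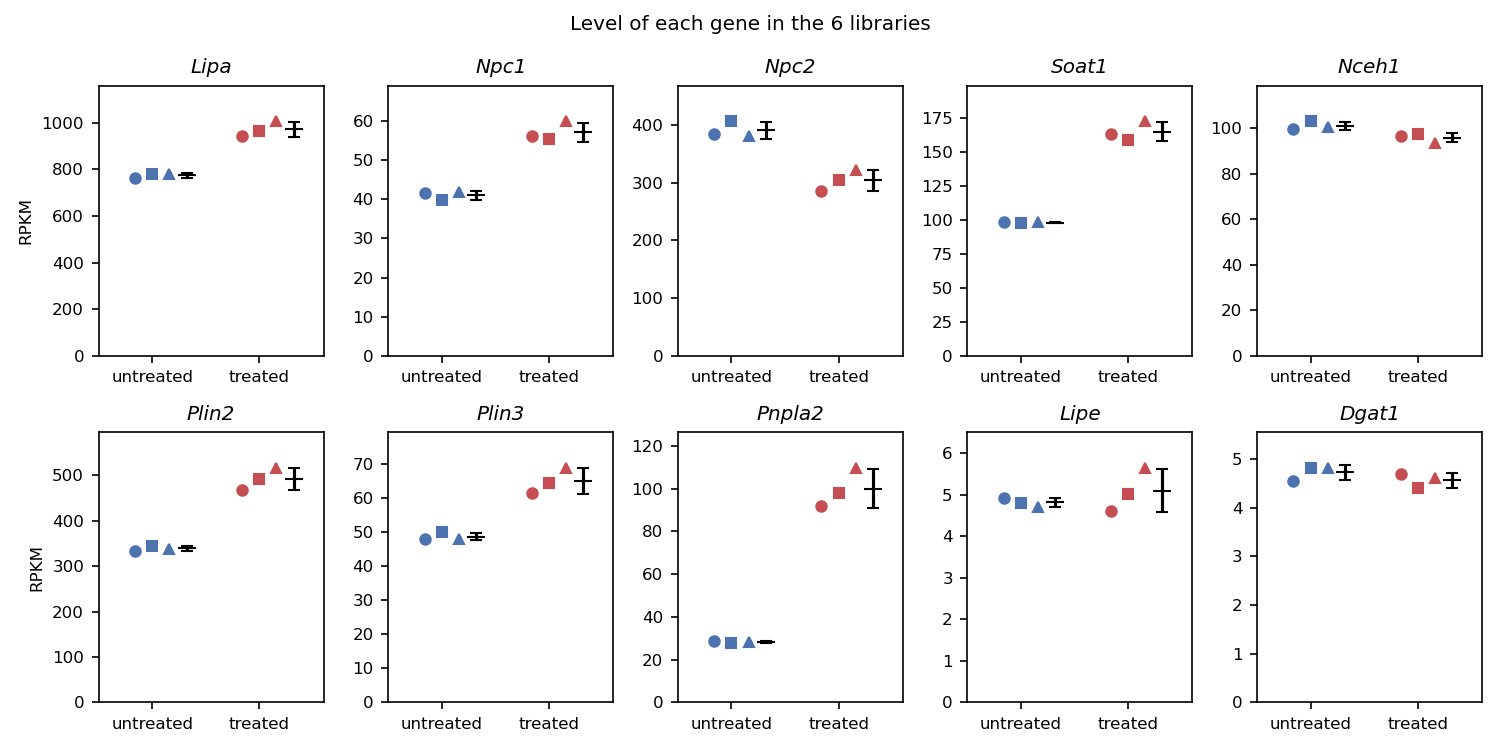
RPKM (vertical axes, each from 0) of the 10 genes in the 3 untreated (blue) and 3 treated (red) libraries, with circle, square and triangle for replicates 1, 2 and 3 and the bar giving mean ± SD. Pnpla2 stood at 27.8 to 28.8 in untreated and 92.0 to 110 in treated libraries, whereas the ranges of Lipe and Dgat1 overlapped.

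The 10 genes spanned a wide range of levels. In untreated macrophages the order of mean RPKM was Lipa at 775, Npc2 at 390, Plin2 at 339, Nceh1 at 101, Soat1 at 98.0, Plin3 at 48.7, Npc1 at 41.1, Pnpla2 at 28.2, Lipe at 4.81 and Dgat1 at 4.73. Lipa stood above 99.6% of tested genes in untreated libraries and Dgat1 above 30.8%. The ranges of Lipe and Dgat1 overlapped, and the other neighbours in that order were separate, though Nceh1 and Soat1 only narrowly. In treated macrophages Plin2 stood above Npc2, Soat1 above Nceh1, and Pnpla2 above Plin3 and Npc1, with means of 492 and 304, 165 and 95.9, and 99.9 against 65.0 and 57.1. Pnpla2 and Nceh1, which were far apart without apoptotic cells, overlapped in treated libraries. This order is that of the deposited RPKM. With levels rescaled to M21 lengths, untreated Lipa and Plin2 would both stand at 339, and Soat1 would be below Nceh1 in both groups, at 47.9 against 101 and 80.5 against 95.9. Untreated Plin2 would already be above Npc2, at 339 against 234, and untreated Pnpla2 would be near Plin3, at 28.2 against 27.8. Pnpla2 would still go from below Npc1 (28.2 against 38.9) to above it (99.9 against 54.1).

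Stretches of promoter are printed here for the rises in Pnpla2, Soat1 and Plin2 and for Nceh1 and Lipe, which share a motif with Plin2 but were not called. RefSeq promoter windows of 300 bases (build GRCm38.p6), from 250 before the transcription start to 50 from it on, matched 8 of the 10 genes by symbol. These 8 genes had 9 windows, and 1 window was used for each printed piece. Searched on both strands were CACGTG, the E-box core of the CLEAR element that the lysosomal regulators TFEB, TFE3 and MITF bind, TGACNNNGC, the core of the antioxidant response element, and the direct repeat bound by PPAR and RXR, known as DR1. CACGTG reads the same on both strands. It stood in windows of 3 of the 8 genes, Plin2, Nceh1 and Lipe, and in 7.15% of all 32851 windows, or 8.09% of the 27025 genes with a window. TGACNNNGC stood in the window of Soat1 only among the 8, and in 12.4% of all windows and 13.99% of genes. DR1 was in 0 of the 8 and in 0.0396% of all windows and 0.0481% of genes. No 2 matches overlapped. Positions count the start as 1 and the base before it as -1, each sequence runs 5′ to 3′ on the strand of its gene, and capitals mark a motif. The piece of Pnpla2 (chr7:141455088-141455207, plus strand) holds none of the 3 motifs, the piece of Soat1 (chr1:156474309-156474508, minus strand) holds TGACNNNGC at -166 to -158 and at 4 to 12, and CACGTG stands at -4 to 2 in Plin2 (chr4:86670040-86670159, minus strand), at -26 to -21 in Nceh1 (chr3:27182904-27183023, plus strand) and at -155 to -150 in Lipe (chr7:25396048-25396167, minus strand).
Pnpla2: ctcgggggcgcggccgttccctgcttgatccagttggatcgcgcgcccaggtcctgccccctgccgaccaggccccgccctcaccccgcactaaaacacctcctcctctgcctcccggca
Soat1: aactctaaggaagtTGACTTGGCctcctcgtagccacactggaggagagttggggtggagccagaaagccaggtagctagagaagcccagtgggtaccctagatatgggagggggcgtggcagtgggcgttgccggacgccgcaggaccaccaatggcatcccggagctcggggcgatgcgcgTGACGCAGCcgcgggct
Plin2: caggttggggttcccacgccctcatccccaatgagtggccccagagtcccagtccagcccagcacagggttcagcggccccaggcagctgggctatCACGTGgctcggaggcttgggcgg
Nceh1: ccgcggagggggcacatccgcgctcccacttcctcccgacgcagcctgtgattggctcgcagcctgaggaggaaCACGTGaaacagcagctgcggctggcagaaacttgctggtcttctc
Lipe: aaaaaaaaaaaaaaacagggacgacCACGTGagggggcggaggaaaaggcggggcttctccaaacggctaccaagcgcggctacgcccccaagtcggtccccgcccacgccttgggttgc
Among the 8 genes with a window, the E-box letters were thus found in 1 that rose and 2 that were not called. Of these 8 genes, 4 held none of the 3 motifs, and genes without a window were not searched. The Lipe window lies inside the span of that gene given below (25379527 to 25398710), not at the outer start of its minus strand.

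Release from the lysosome was studied through 3 genes, and they did not move alike. Lipa (ENSMUSG00000024781, GRCm38 chromosome 19, 34492318 to 34527474, minus strand) encodes lysosomal acid lipase. It measured 763, 782 and 779 RPKM in the untreated libraries and 943, 964 and 1007 in the treated ones, both in the order of replicates 1, 2 and 3, as for all values per library below. Every treated library was above every untreated one. The mean went from 775 ± 10.04 to 971 ± 32.3 (SD, n = 3 each), 1.254-fold, with a log2 change of 0.33 (SE 0.05, adjusted p = 0.000319). This was the smallest of the 6 rises.

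Npc1 (ENSMUSG00000024413, chromosome 18, 12189693 to 12236400, minus strand) encodes the membrane protein that exports cholesterol from the lysosome. Its levels were 41.5, 39.8 and 41.9 in untreated and 56.1, 55.4 and 59.9 in treated libraries, again with no overlap. The means were 41.1 ± 1.14 and 57.1 ± 2.43, a 1.39-fold rise, with a log2 change of 0.47 (SE 0.05, adjusted p = 2.22e-05). The gene Rmc1 on the opposite strand shares 511 exon bases with Npc1 in GENCODE M21, at a level of 7.16 to 8.90 RPKM, and whether reads were counted by strand is not given, so reads of the pair may have been mixed.

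Npc2 (ENSMUSG00000021242, chromosome 12, 84754560 to 84773112, minus strand) encodes the soluble partner that binds cholesterol inside the lysosome and loads it onto NPC1. It measured 384, 406 and 381 in untreated and 286, 305 and 321 in treated libraries. All treated values were below all untreated values. The mean fell from 390 ± 13.97 to 304 ± 17.7, a 1.28-fold drop (log2 change -0.36, SE 0.06, adjusted p = 0.000396). It remained called lower after median-of-ratios scaling, at -0.21 (adjusted p = 0.00874). Within single libraries the Npc2 to Npc1 ratio, which no library scaling can alter, was 9.24, 10.2 and 9.08 in untreated and 5.09, 5.51 and 5.36 in treated libraries.

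Esterification and its reversal are represented by Soat1 and Nceh1. Soat1 (ENSMUSG00000026600, chromosome 1, 156428108 to 156474328, minus strand), the enzyme that makes cholesteryl esters for droplets, stood at 98.2, 97.5 and 98.4 in untreated and 163, 159 and 173 in treated libraries. The untreated values were nearly identical and all treated values lay well above them. The means were 98.0 ± 0.483 and 165 ± 7.10, a 1.68-fold rise, with a log2 change of 0.74 (SE 0.04, adjusted p = 6.63e-07). Its relative Soat2, the main form in gut and liver, was under 1 RPKM in every library, at 0.233, 0.283 and 0.547 in untreated and 0.0695, 0.158 and 0.0766 in treated libraries, and was not tested.

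Nceh1 (ENSMUSG00000027698, chromosome 3, 27182965 to 27284608, plus strand) encodes neutral cholesteryl ester hydrolase, which frees cholesterol from stored esters outside the lysosome. It measured 99.8, 103 and 101 in untreated and 96.6, 97.4 and 93.7 in treated libraries. The treated values were all slightly lower, yet the difference did not pass (log2 change -0.08, 95% interval -0.17 to 0.01, adjusted p = 0.118). Its sign turned with scaling, to 0.07 with median-of-ratios and 0.04 with upper-quartile scaling, neither of which passed. The ratio of Soat1 to Nceh1, the maker and a remover of stored esters, was 0.984, 0.945 and 0.977 in untreated libraries and 1.69, 1.63 and 1.84 in treated libraries. The ratio was higher in every treated library. Its level depends on the lengths, and with M21 lengths its means would be 0.473 and 0.840, while the difference between the groups is the same with either. The ratio of Lipa, the acid hydrolase, to Nceh1, the neutral one, went from 7.66 ± 0.0844 to 10.1 ± 0.533. The level of that ratio depends on the lengths too. With M21 lengths the untreated means would be 339 for Lipa and 101 for Nceh1, and the treated means 425 and 95.9.

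Triglyceride synthesis was read from Dgat1 (ENSMUSG00000022555, chromosome 15, 76502015 to 76511951, minus strand), which encodes an acyltransferase of the endoplasmic reticulum. It measured 4.54, 4.82 and 4.81 in untreated and 4.70, 4.40 and 4.602 in treated libraries. The groups overlapped, and the change did not pass (log2 change -0.04, 95% interval -0.16 to 0.08, adjusted p = 0.504). The sign was positive, at 0.08 and 0.05, with median-of-ratios and upper-quartile scaling. The other enzyme of this step, Dgat2, was under 1 RPKM in all libraries, at 0.223 to 0.289 in untreated and 0.0780 to 0.151 in treated libraries. The Dgat1 to Soat1 ratio was 0.0463, 0.0495 and 0.0489 in untreated and 0.0288, 0.0277 and 0.0267 in treated libraries.

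Both droplet coat genes rose. Plin2 (ENSMUSG00000028494, chromosome 4, 86648386 to 86670060, minus strand) encodes perilipin 2, a coat protein of droplets in most cells outside fat tissue. It stood at 334, 345 and 338 in untreated and 468, 492 and 516 in treated libraries, with no overlap. The means were 339 ± 5.62 and 492 ± 24.2, a 1.45-fold rise, with a log2 change of 0.54 (SE 0.05, adjusted p = 1.40e-05). Plin3 (ENSMUSG00000024197, chromosome 17, 56278962 to 56290511, minus strand), whose product moves from the cytosol to forming droplets, stood at 48.2, 50.02 and 48.0 in untreated and 61.5, 64.6 and 69.0 in treated libraries. Its means were 48.7 ± 1.13 and 65.0 ± 3.76, a 1.33-fold rise, with a log2 change of 0.41 (SE 0.05, adjusted p = 9.90e-05). The Plin2 to Plin3 ratio shifted little, from 6.93, 6.90 and 7.04 to 7.61, 7.62 and 7.48. The other perilipins, Plin1, Plin4 and Plin5, were under 1 RPKM in every library, with Plin5 at 0 in all of them.

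The largest change was in a lipase. Pnpla2 (ENSMUSG00000025509, chromosome 7, 141455198 to 141460743, plus strand) encodes adipose triglyceride lipase (ATGL), which takes the first fatty acid off a triglyceride in droplets. It measured 28.8, 27.8 and 28.0 in untreated and 92.0, 98.0 and 110 in treated libraries. The treated values were also spread more widely than the untreated ones. The means were 28.2 ± 0.525 and 99.9 ± 9.01, a 3.55-fold rise, with a log2 change of 1.79 (SE 0.06, adjusted p = 1.99e-08), which was exceeded by 0.767% of tested genes. Pnpla2 went from above 82.1% to above 95.7% of tested genes by level.

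Lipe (ENSMUSG00000003123, chromosome 7, 25379527 to 25398710, minus strand) encodes hormone-sensitive lipase, which cuts diglycerides and cholesteryl esters. It stood at 4.93, 4.80 and 4.71 in untreated and 4.62, 5.01 and 5.65 in treated libraries, so the groups overlapped. The antisense gene 4732471J01Rik, which shares 918 exon bases with Lipe, was at 0 in every library. The change did not pass (log2 change 0.06, 95% interval -0.09 to 0.22, adjusted p = 0.420). It did pass as higher after median-of-ratios scaling, at 0.19 on the log2 scale (adjusted p = 0.0391), and without treated replicate 3 the value was -0.00045. The Pnpla2 to Lipe ratio was 5.84, 5.78 and 5.95 in untreated and 19.9, 19.5 and 19.4 in treated libraries, a 3.35-fold difference, with less spread between treated libraries than either gene showed alone.

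Across the 6 ratios computed, all gave p = 0.1 in an exact two-sided permutation test and an adjusted p of 0.1, the smallest value that 3 against 3 libraries allow, so none could pass 0.05. The log2 differences of the ratios, treated minus untreated, were 1.75 for Pnpla2 to Lipe, 0.83 for Soat1 to Nceh1, 0.40 for Lipa to Nceh1, 0.12 for Plin2 to Plin3, -0.80 for Dgat1 to Soat1 and -0.84 for Npc2 to Npc1. Each exceeded the SD between libraries of either group on that scale, which was at most 0.0916 over the 6 ratios. Ratios that share a gene, such as those with Soat1 or Nceh1, are not independent of each other. The levels of all 6 ratios depend on the gene lengths used, while the log2 differences between the groups do not.

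**Figure D2:**
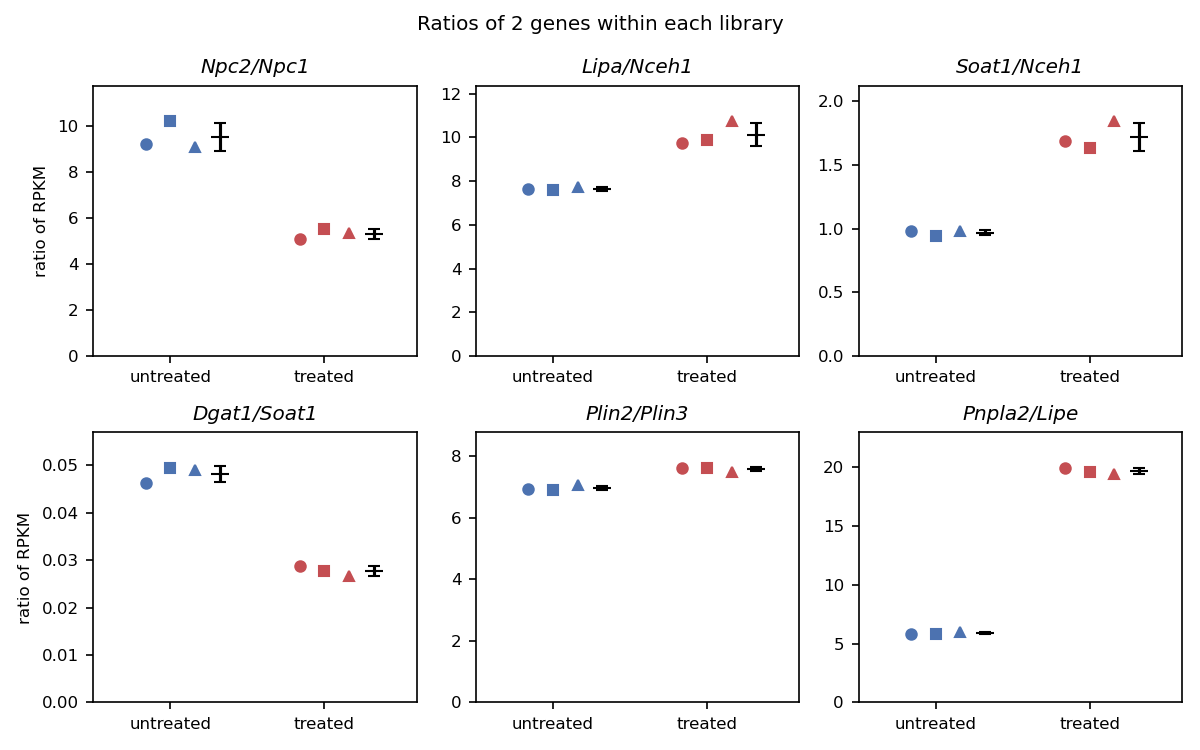
Ratios of RPKM of 2 genes within each library (vertical axes, each from 0), untreated in blue and treated in red, with circle, square and triangle for replicates 1, 2 and 3 and bars for mean ± SD. The Soat1 to Nceh1 ratio moved from 0.969 ± 0.0211 to 1.72 ± 0.110 and the Npc2 to Npc1 ratio from 9.52 ± 0.614 to 5.32 ± 0.212.

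With scaling, by median-of-ratios or upper quartile, 59.9% and 59.6% of tested genes were called. Both shifted all 10 changes upward. The median log2 change of tested genes was -0.13 with RPKM as deposited, -0.0031 with median-of-ratios and -0.03 with upper-quartile scaling. Lipa, Npc1, Soat1, Plin2, Plin3 and Pnpla2 were called higher and Npc2 lower under all 11 alternatives, including the omission of any single library. Over these fits the log2 change ranged from 1.72 to 1.93 for Pnpla2, from 0.71 to 0.89 for Soat1, from 0.50 to 0.68 for Plin2, from 0.43 to 0.61 for Npc1, from 0.36 to 0.55 for Plin3, from 0.30 to 0.47 for Lipa and from -0.40 to -0.21 for Npc2.

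**Figure D3:**
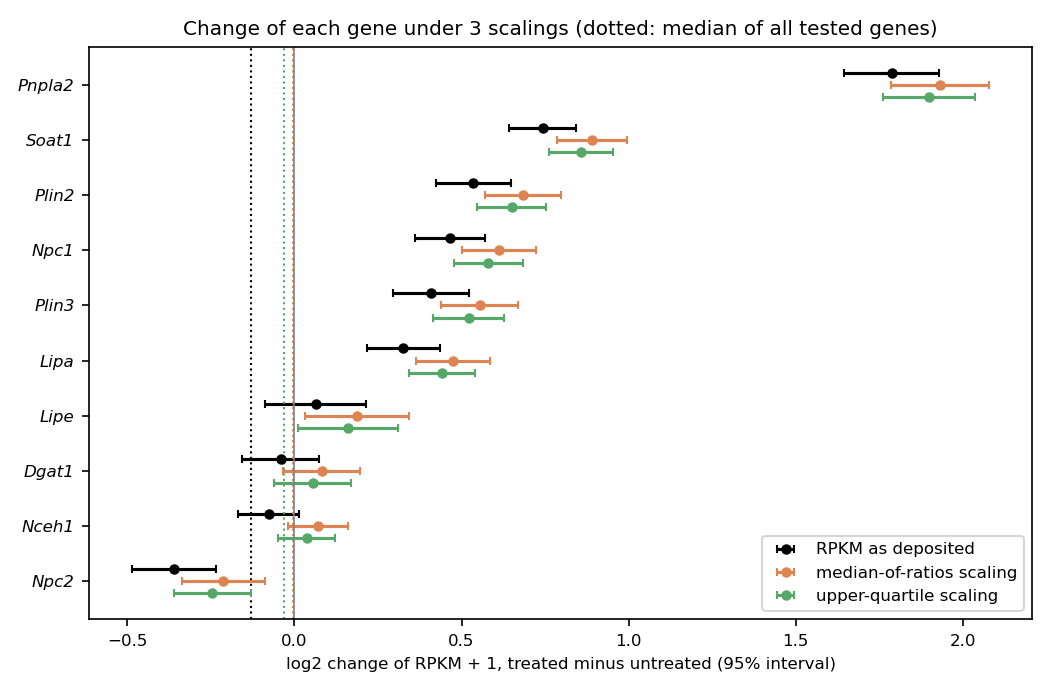
Log2 change of RPKM + 1, treated minus untreated, with its 95% interval (horizontal axis) for the 10 genes, with RPKM as deposited (black), median-of-ratios scaling (orange) and upper-quartile scaling (green). Dotted lines mark the median of all tested genes under each scaling. Pnpla2 lies apart at 1.79, and the intervals of Nceh1 and Dgat1 include 0 under all 3.

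By likeness over the 6 libraries, measured as Pearson r of log2(RPKM + 1) among 6725 other tested genes whose mean reached 5 RPKM, the 3 genes closest to Pnpla2 were Rxra (r = 0.99996), Psap (r = 0.99968) and Por (r = 0.99965). Rxra, which encodes a nuclear receptor that pairs with PPAR and LXR, stood at 17.1, 16.5 and 16.8 in untreated and 40.9, 43.2 and 46.6 in treated libraries. Psap encodes the saposin precursor and Por the electron donor of cytochromes P450. With 2 groups such an r mostly reflects the difference between them, and 406 genes exceeded 0.99.

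Of 38 other genes of lysosomal cholesterol handling and sterol transfer, 33 could be tested, and 14 were higher, 10 lower and 9 did not pass, beside 18.8% higher and 46.0% lower of all tested genes. Their median log2 change was 0.07, beside -0.13 for all tested genes, and median-of-ratios scaling gave 18 higher and 8 lower, beside 30.2% and 29.8% of all. The rises with the smallest p were in Anxa6, Psap and Lamp1. Anxa6, whose product is a membrane-binding annexin, went from 43.3 ± 1.24 to 82.5 ± 5.57 (log2 change 0.91), Psap from 3731 ± 80.9 to 7280 ± 400 (0.96), and Lamp1, a major protein of the lysosomal membrane, from 1026 ± 17.2 to 1734 ± 112 (0.76). Scarb2, which encodes the lysosomal membrane protein LIMP-2, rose from 63.7 ± 1.61 to 90.2 ± 4.07 (0.49).

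The falls with the smallest p in that list were in Mitf, Gpr155 and Osbpl8. Osbpl8, a lipid transfer protein of the endoplasmic reticulum, had the largest one, from 119 ± 6.998 to 44.7 ± 7.46 (log2 change -1.41), and its treated libraries stood at 51.7, 45.6 and 36.9. Gpr155, a lysosomal cholesterol sensor, fell from 4.57 ± 0.207 to 2.16 ± 0.157 (-0.82). Mitf fell from 12.4 ± 0.354 to 5.64 ± 0.569 (-1.01). Its relatives Tfeb, from 8.90 ± 0.227 to 6.75 ± 0.236 (-0.35), and Tfe3, from 15.4 ± 0.472 to 12.2 ± 0.283 (-0.31), were called lower too, and all 3 remained so with both other scalings. These 3 encode the factors named above for the CLEAR element, and whether they bind the promoters printed above was not tested. Scarb2, Tfeb and Tfe3 were named after their values had been seen.

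Of 46 other genes of droplet formation, neutral lipid synthesis and lipolysis, 21 were under 1 RPKM in every library, and of the 25 tested 3 were higher, 9 lower and 13 did not pass, beside the same 18.8% and 46.0% of all tested genes. The median log2 change of the 25 was -0.08. Here the scaling mattered, with 8 higher and 3 lower after median-of-ratios scaling (30.2% and 29.8% of all) and 7 higher and 5 lower after upper-quartile scaling, where 27.2% and 32.4% of all tested genes were higher and lower, 59.6% in all. Rab8a, a small GTPase, rose from 21.6 ± 0.676 to 26.2 ± 1.13 (log2 change 0.27). The calls of Fitm2 (0.15, adjusted p = 0.0496), a gene of droplet budding, and Hsd17b11 (0.12, adjusted p = 0.0483) were near the threshold. The Fitm2 call was lost on leaving out any of the 6 libraries (adjusted p = 0.0533 to 0.185). That of Hsd17b11 was lost without untreated replicate 1 (0.150) or 3 (0.173) or treated replicate 2 (0.114) or 3 (0.0938). Without the filter both calls were lost too (adjusted p = 0.0858 for Fitm2 and 0.0656 for Hsd17b11). The same held with the replicate number as a block (0.0810 and 0.0583). A pseudocount of 0.1 removed the call of Fitm2 (0.0556) only. Both calls held with median-of-ratios and upper-quartile scaling.

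Acsl3, which activates fatty acids at forming droplets, had the largest fall in this list, from 6.69, 7.05 and 6.81 in untreated to 2.22, 1.999 and 1.33 in treated libraries (log2 change -1.48, SE 0.11, adjusted p = 2.56e-06). Lpin2, a phosphatidate phosphatase of glycerolipid synthesis, fell from 12.5 ± 0.0783 to 8.19 ± 0.236 (-0.55). Pcyt1a, the enzyme that controls phosphatidylcholine synthesis, fell from 27.8 ± 0.380 to 23.2 ± 0.832 (-0.25), a call that was lost with median-of-ratios scaling (-0.11, adjusted p = 0.0636). Of the partners of ATGL, both named after their values had been seen, the coactivator gene Abhd5 fell from 15.7 ± 0.144 to 12.97 ± 0.462 (-0.26, adjusted p = 0.000876). That call, too, was lost with median-of-ratios scaling (-0.12, adjusted p = 0.0518). The inhibitor gene G0s2 was too low to be tested, at 0.430, 0.348 and 0.154 in untreated and 0.0916, 0.0521 and 0.252 in treated libraries.

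**Figure D4:**
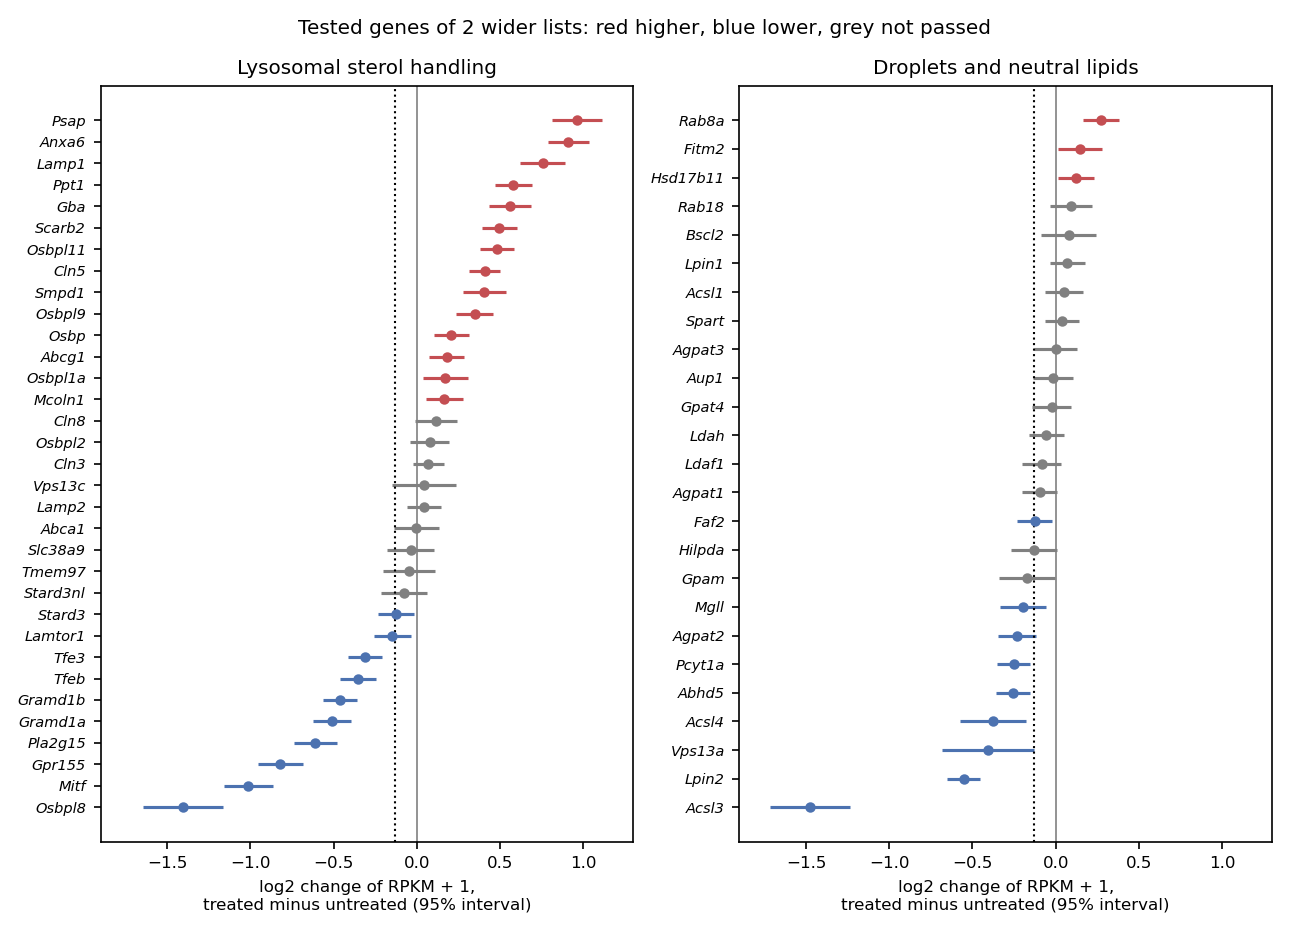
Log2 change of RPKM + 1, treated minus untreated, with 95% intervals (horizontal axis) for the 33 tested genes of lysosomal sterol handling (left) and the 25 of droplets and neutral lipids (right), red where called higher, blue where called lower and grey where not passed, with a dotted line at the median of all tested genes, -0.13. Osbpl8 (-1.41) and Acsl3 (-1.48) have the largest falls.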

How the data were processed

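Poly(A) RNA was made into strand-specific TruSeq libraries and sequenced on a NextSeq, per the labels' protocols. The deposited table gives RPKM per gene and library, per the file headers, on GRCm38 (mm10), per the labels. Aligner, counting program and strand setting are not given in the sources used here. Every gene that reached 1 RPKM in 3 or more libraries was tested. The values log2(RPKM + 1) entered limma 3.58.1 in R 4.3.3, with the group as the only term and a trend of variance with intensity, and adjustment was by Benjamini-Hochberg over 10173 genes. Folds are ratios of mean RPKM. Depth was recovered from genes with 1 read, given GENCODE M21 exon lengths, and 9371 of 18737 genes above 0 then gave whole reads in all libraries, within 0.001, as did 3 of the 10 genes. For the other 7, lengths from 200 bases upward were searched for the first that gave whole reads. For a gene of 1 kb, a single read equals 0.0386 to 0.0518 RPKM. Duplicated reads cannot be told from these values. The 10 genes and the wider lists were chosen with earlier results of these data known. Named besides the 10 were up to 3 higher and 3 lower genes with the smallest p in each wider list, and the 3 genes most like the gene of largest change. Of all list entries, 6 were found under another symbol. The fit was tested on simulated reads with 200 changed genes. In the real data 64.8% of tested genes were called, so that simulation does not bear on the choice of scaling. Python 3.11.15, pandas 2.3.3 and numpy 2.4.6 handled the tables.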

Additional observations from a re-analysis of the deposited data

How the results depend on the processing

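Alternatives were a pseudocount of 0.1, no filter, median-of-ratios and upper-quartile scaling, the replicate number as a block, and the omission of each library. The 7 calls among the 10 genes held under all of them. Of the genes without a call, Nceh1 turned to 0.0706 with median-of-ratios and 0.0375 with upper-quartile scaling, Dgat1 to 0.0819 and 0.0544, and Lipe, which ranged from -0.00045 to 0.121 when 1 library was left out, changed sign without treated replicate 3. Over all genes, median-of-ratios scaling gave 3064 higher and 3025 lower, against 1915 and 4679. In the droplet list, higher calls went from 3 to 1 with no filter, 8 with median-of-ratios and 7 with upper-quartile scaling, and 1 to 3 on leaving out a library. Lower calls there went from 9 to 3 and 5 with these scalings. Both scalings moved all changes upward. The factors by which values were divided, estimated from these data, were 1.04 to 1.06 in untreated and 0.946 to 0.965 in treated libraries. With the replicate block, the droplet list had 1 higher call, and the calls of the 10 genes did not change. The numbers were not taken as pairs, since the titles name no shared animal or day. Deviations of same-numbered libraries correlated at 0.20, -0.03 and -0.16, and those of unlike numbers at -0.32 to 0.33. With so few libraries these values cannot decide whether libraries were paired. With a pseudocount of 0.1, all 6 ratio differences moved by less than the larger SD between libraries of a group. The other alternative values of the ratios, each with 1 library left out, cannot move that far by construction, so they show nothing on this point. Depth limits the genes under 1 RPKM, which were not tested.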

Other observations

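Of the 10 genes, 8 had their highest treated value in treated replicate 3, and 6 had their lowest treated value in treated replicate 1. Over all tested genes, 43.5% had their highest treated value in treated replicate 3 and 42.7% their lowest in treated replicate 1. Without treated replicate 3 the log2 changes were 1.72 for Pnpla2, 0.71 for Soat1 and 0.50 for Plin2, and all 3 were still called.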
